A study of Mus musculus with 13 samples.

Results

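Estradiol (E2) was added to fibroblasts that had already been given the estrogen receptor antagonist fulvestrant, and estrogen receptor alpha (ESR1) peaks were compared with those of cells given fulvestrant without E2. The comparison took the 3 libraries labelled estrogen plus fulvestrant and the 3 labelled fulvestrant, 6 of the 12 ESR1 ChIP-Seq libraries of the series, and 327076 of the 686823 deposited peaks. All were primary skeletal muscle fibroblasts, grown per the study from the lower abdominal muscle of Aromhum mice, whose transgene supplies human aromatase, which converts androgens to estrogens. Both groups received 100 nM fulvestrant before the hormone, in serum-free medium. E2 at 10 nM was then added to the first group, and the cells were fixed after 1 hour. The cultures were adherent fibroblasts selected by preplating, so they stand for a cultured fraction of the muscle, and the labels do not say whether replicates came from separate mice or cultures, so p-values measure the spread between these libraries, which may be technical.

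ESR1 is a nuclear receptor that binds DNA as a dimer at estrogen response elements (EREs), palindromes of the half-sites GGTCA and TGACC around a spacer of any 3 bases, and it is also found at sites of other factors such as the Fos and Jun proteins, whose AP-1 element reads TGANTCA. E2 occupies the ligand pocket and stabilizes the form that recruits coactivators. Fulvestrant competes for the same pocket and also lowers the amount of receptor, so a cell holding both ligands carries receptor under competition.

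With fulvestrant on both sides, ESR1 peaks that lie outside promoters and hold an ERE ranked nearer the top of the peak list when E2 was added. Of 12806 regions with a peak in all 6 libraries, 540 (4.22%) ranked higher with E2 plus fulvestrant and 14 (0.109%) ranked higher with fulvestrant (limma on log2 rank, adjusted p under 0.05). Of the 540, 141 lay outside promoters and held an ERE, and 367 held no ERE. The first group lay near Ngfr, Tln2, Mapkapk2, Mrpl33, Fbxo32, Lgr6, Esr1, Greb1, Dcn and others, and 173 of the 540 (32.0%) held an ERE at the summit, against 197 of the 12252 regions not called (1.61%). These sets were not matched for rank. With E2 plus fulvestrant the median ranks were 1005, 443 and 468 for the 540, and 6655, 6674 and 6673 for those not called. Among the top 1000 peaks with fulvestrant, 41.3%, 25.3% and 39.4% of those outside promoters also held an ERE. Of the second group, 12 of 14 were promoters, among them those of Dnajb1, Arpc5 and Klf7, and none of the 14 held an ERE.

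The windows below show the EREs at the 6 regions with the smallest p among the named regions that hold one, because EREs were far more frequent in the 540 regions than in the rest. Each was read from the RefSeq GRCm38.p6 genome (the assembly of mm10), plus strand, around the summit, and capitals mark the ERE. Lower case does not mark repeats. Within 100 bp of the summit, 57.7% of bases were repeat-masked at Scg5 and 57.7% at Nkain1. The Ngfr, Mapkapk2 and Nkain1 regions counted as promoters, at 1463, 1828 and 2080 bp from the nearest transcription start site of any gene. The Ngfr window is chr11:95621097-95621297, the Mapkapk2 window chr1:131075479-131075679 and the Fbxo32 window chr15:58204224-58204324. The Fgd2 window is chr17:29428424-29428524, the Scg5 window chr2:113821626-113821826 and the Nkain1 window chr4:130576203-130576303.
Ngfr: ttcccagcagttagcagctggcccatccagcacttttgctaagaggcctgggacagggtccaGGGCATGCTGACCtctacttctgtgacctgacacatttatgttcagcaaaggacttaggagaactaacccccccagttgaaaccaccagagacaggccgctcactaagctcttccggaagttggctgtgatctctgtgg
Mapkapk2: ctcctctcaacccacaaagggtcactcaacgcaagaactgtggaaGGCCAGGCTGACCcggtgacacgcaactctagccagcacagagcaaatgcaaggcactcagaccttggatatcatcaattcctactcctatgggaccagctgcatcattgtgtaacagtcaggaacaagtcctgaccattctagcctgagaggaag
Fbxo32: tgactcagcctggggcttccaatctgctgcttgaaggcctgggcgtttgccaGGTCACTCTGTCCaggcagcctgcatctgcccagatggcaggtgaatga
Fgd2: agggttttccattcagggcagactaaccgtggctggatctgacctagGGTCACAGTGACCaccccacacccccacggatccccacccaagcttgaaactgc
Scg5: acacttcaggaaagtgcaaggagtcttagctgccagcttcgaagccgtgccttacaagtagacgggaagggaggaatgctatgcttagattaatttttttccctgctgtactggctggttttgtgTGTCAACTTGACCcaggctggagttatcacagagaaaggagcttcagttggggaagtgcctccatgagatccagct
Nkain1: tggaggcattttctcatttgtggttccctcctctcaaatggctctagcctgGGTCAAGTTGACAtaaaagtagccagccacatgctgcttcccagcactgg
The Fgd2 element has no mismatch to the palindrome and its centre lies 3 bp from the summit. The other 5 have 1 mismatch each, with centres 7 bp (Nkain1), 8 bp (Fbxo32), 31 bp (Scg5), 32 bp (Ngfr) and 49 bp (Mapkapk2) from the summit. Counting from 1 at the first base in capitals, with the base of the palindrome first, the mismatches are T3G (Ngfr), T3C (Mapkapk2) and G1T (Scg5) in the first half-site and A11T (Fbxo32) and C13A (Nkain1) in the second.

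Peak numbers did not separate the groups. Libraries with E2 plus fulvestrant held 40939, 50869 and 66218 peaks, and libraries with fulvestrant held 42541, 80754 and 45755 (exact permutation test over libraries, two-sided p = 0.8, where 3 against 3 cannot go below 0.1). Fulvestrant replicate 2 stood apart: 27.9% of its summits lay in repeat-masked sequence against 5.57% to 7.61% in the other 5 libraries, it had 206 peaks on the Y chromosome against 24 to 41, and its depth, recovered from the background that the peak caller used, was 75.8% of the median library against 92.0% to 106%. Its part in the results was not tested, and the main results are given with and without it. Of the 6 fibroblast markers looked up, Pdgfra, Col1a1, Col1a2, Dcn and Lum had a promoter peak in all 6 libraries and Thy1 in 2. Of the myogenic markers, Myod1, Myf5 and Myog had none and Pax7 had 1, in fulvestrant replicate 2. Of the other markers, Cd68 (immune) had a promoter peak in 5 of 6 libraries, all but E2 plus fulvestrant replicate 1, Cdh5 (endothelial) had 1 in fulvestrant replicate 2, and Pecam1, Ptprc, Epcam and Cdh1 had none.

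The strongest peaks of each library were examined for EREs, counting a summit as having one when an element with at most 1 mismatch lay within 100 bp on either strand. Among the top 1000 peaks by q-value, 23.3%, 33.5% and 33.3% had an ERE with E2 plus fulvestrant, and 9.3%, 3.1% and 11.9% with fulvestrant. The groups did not overlap, and the means were 30.0% ± 5.83 and 8.10% ± 4.52 (SD, n = 3 each, exact permutation p = 0.1, the smallest possible, and adjusted p = 0.167 over 10 measures). Without fulvestrant replicate 2 the fulvestrant mean was 10.6% and the difference 19.4 percentage points in place of 21.9 (exact permutation p = 0.1).

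The ERE share was steepest at the head of the lists. In the first 250 peaks it was 51.2%, 60.0% and 58.4% with E2 plus fulvestrant, and 21.6%, 4.8% and 24.0% with fulvestrant. By ranks 2501 to 5000 the values had come down to 4.12%, 5.2% and 4.8% against 2.84%, 1.12% and 2.84%. Windows of the same size 2 kb away from the top 1000 summits held an ERE in 0.3% to 0.7% of cases in all 6 libraries. Of 32851 RefSeq promoter sequences, which are longer than these windows, 0.877% held one. Over all summits the shares were 2.77%, 3.0% and 2.47% against 1.77%, 0.949% and 1.72% (exact permutation p = 0.1, adjusted p = 0.167).

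**Figure D1:**
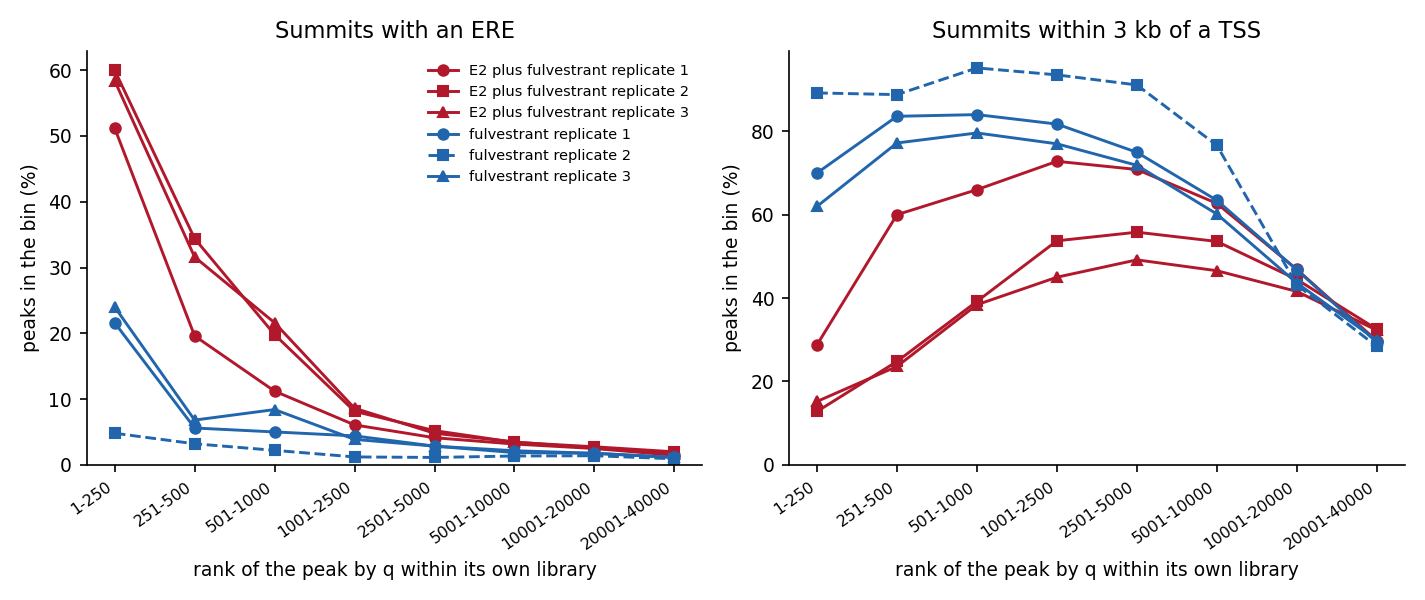
Share of peaks with an ERE within 100 bp of the summit (left) and share of promoter peaks (right), in percent, by rank within each library's own list. Each line is 1 library, red for E2 plus fulvestrant, blue for fulvestrant, dashed for fulvestrant replicate 2. In the first 250 peaks the 3 red lines lie between 51.2% and 60.0% for the ERE, and the blue lines between 4.8% and 24.0%.

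The head of the list also held fewer promoters, meaning summits no more than 3 kb from any transcription start site (TSS). Promoters made up 55.2%, 29.0% and 28.9% of the top 1000 with E2 plus fulvestrant and 80.4%, 92.1% and 74.6% with fulvestrant, again without overlap (exact permutation p = 0.1, adjusted p = 0.167). The difference was -44.7 percentage points, and -39.8 without fulvestrant replicate 2 (exact permutation p = 0.2). The median distance of a top 1000 summit to a protein-coding TSS was 4037, 34749 and 35127 bp against 320, 228 and 383.5 bp. E2 plus fulvestrant replicate 1 lay nearest to the fulvestrant libraries in these measures. Over all peaks of a list the promoter share did not separate the groups, at 42.5%, 37.4% and 33.1% against 43.0%, 33.2% and 40.7% (exact permutation p = 0.7).

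Among the top 1000 peaks that lay outside promoters, the ERE shares of the groups overlapped. It was 44.6%, 40.0% and 40.2% of 448, 710 and 711 such peaks with E2 plus fulvestrant, and 41.3%, 25.3% and 39.4% of 196, 79 and 254 with fulvestrant. The groups did not overlap in how many non-promoter peaks reached the top 1000, but overlapped in the share of those with an ERE (difference 6.28 percentage points, exact permutation p = 0.4, and 1.27 without replicate 2). Within top promoter peaks the ERE share was 5.98%, 17.6% and 16.3% against 1.49%, 1.19% and 2.55%.

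Elements of other factors were counted in the same windows, while RefSeq promoter shares were over longer sequences. AP-1 elements, matched by 7.81% of RefSeq promoters, were at 9.3%, 14.5% and 13.7% of the top 1000 summits with E2 plus fulvestrant and at 3.9%, 1.5% and 4.7% with fulvestrant (exact permutation p = 0.1, adjusted p = 0.167). Windows 2 kb away held 5.4% to 6.4%. Outside promoters the AP-1 share was 16.7%, 18% and 17.4% against 11.7%, 3.80% and 9.84%, so for this element the groups did not overlap there either. An ERE half-site and the AP-1 element share the letters TGA, and overlapping matches were not removed.

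The TEAD element GGAATG, read by partners of the YAP coactivator and present in 14.7% of RefSeq promoters, was at 13.2%, 16.4% and 19.0% of the top 1000 summits against 10.1%, 6.2% and 10.5%. The ETS element CCGGAAG, common in promoters (8.86%), went the other way, at 3.7%, 2.8% and 2.9% against 5.1%, 7.0% and 4.9%. Both RefSeq promoter shares were over sequences longer than the summit windows. Steroid elements of the glucocorticoid and progesterone receptor type, the half-sites AGAACA and TGTTCT around 3 bases with at most 1 mismatch, stood at 2, 5 and 7 of the top 1000 summits against 0, 0 and 1, where a count of 0 allows a share of up to 0.3%. None of these sets of values overlapped between groups. For the steroid element the exact permutation p was 0.1 and the adjusted p 0.167, and without fulvestrant replicate 2 the p was 0.2.

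**Figure D2:**
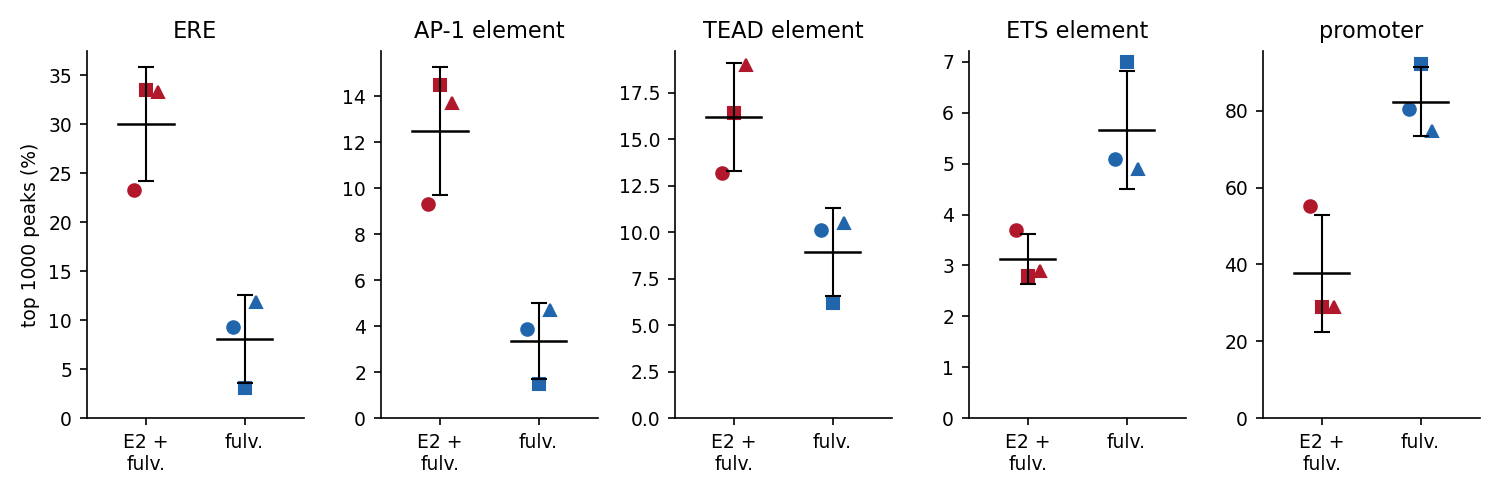
Percent of the 1000 strongest peaks of each library with the named element within 100 bp of the summit, or with a promoter summit. Symbols are the 3 libraries of each group (circle, square and triangle for replicates 1, 2 and 3), the line is the mean and the bar the SD. The ERE, AP-1 and TEAD values are higher and the ETS and promoter values lower in all 3 libraries with E2 plus fulvestrant.

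Peaks of the 6 lists were merged where they overlapped by at least 1 bp, and each library's best peak in a region was ranked among the regions shared by all 6, with 1 the strongest. The difference between groups in mean log2 rank is given as a rank gain, positive when the region ranked nearer the top with E2 plus fulvestrant. A gain of 1 means a rank number 2-fold smaller. A rank is relative, so a region can lose rank because others gained. The median gain over all 12806 regions was -0.11, and 41.5% of regions had a gain above 0. Rank alone does not carry the amount of enrichment, so the authors' fold enrichment over local background is given beside it.

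The 540 regions that ranked higher had a median gain of 3.26 (quartiles 2.62 and 3.88). Their median rank was 1005, 443 and 468 with E2 plus fulvestrant and 5463, 10106 and 5248 with fulvestrant. Their median fold enrichment was 6.69, 9.57 and 10.6 against 4.28, 3.49 and 3.97, while over all shared regions it was 3.62, 3.80 and 4.03 against 3.87, 5.12 and 3.63. In 532 of the 540 the ranks of the groups did not overlap, as they did not in 2430 of all 12806. Testing the log2 of the fold in place of a rank, an alternative added after the data were seen, called 413 regions higher, including 364 of the 540, and 8 lower.

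The regions that ranked higher were mostly distal. Of the 540, 238 (44.1%) lay in introns, 216 (40.0%) between genes, 17 in exons and 69 (12.8%) in promoters, where 67.6% of the regions not called were promoters. The median distance to a protein-coding TSS was 45146 bp, against 443 bp for regions not called. EREs without a mismatch were at 49 of the 540 (9.07%) and at 34 of those not called (0.278%), sets that were not matched for rank. AP-1 elements were at 101 (18.7%) against 4.50%, both elements at 29, and neither at 295 (54.6%). Of the 540, 18 (3.33%) lay in repeat-masked sequence, a share near the 2.75% of all shared regions.

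Position and ERE went together in the size of the gain. The 266 ERE regions outside promoters had a median gain of 3.03, and 53.0% of them were called higher. The 4178 regions outside promoters with no ERE had a median of 0.18, with 7.90% called. Those among them with an AP-1 element had a median of 0.51 and 15.3% called. At promoters the median was 0.52 for the 104 with an ERE (30.8% called) and -0.30 for the 8258 without (0.448% called). By number of mismatches the median was 3.08 with none, 2.46 with 1 and 0.04 with 2, where -0.14 was the median of the rest. Without fulvestrant replicate 2 these medians were smaller, at 2.31, 1.45 and -0.03 against -0.23 for the rest, so the value for 2 mismatches changed sign. In that fit the median was 2.03 for the ERE regions outside promoters, 0.06 for those outside promoters with no ERE, 0.34 for those among them with an AP-1 element, and 0.49 and -0.36 for promoters with and without an ERE.

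**Figure D3:**
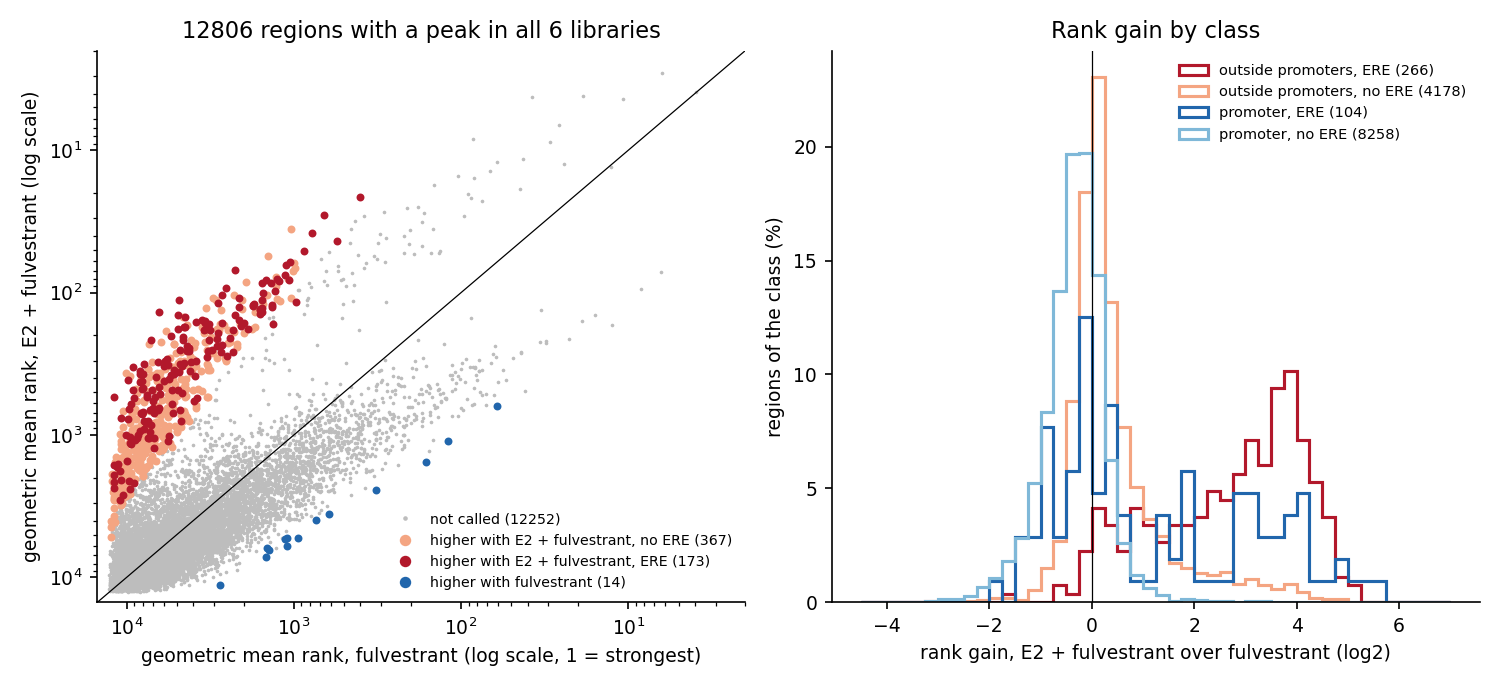
Left, geometric mean rank of each of the 12806 shared regions with fulvestrant (x) and with E2 plus fulvestrant (y), log axes with the strongest rank at the top right. Dark red regions ranked higher with E2 plus fulvestrant and hold an ERE (173), light red hold none (367), blue ranked higher with fulvestrant (14), grey were not called. Right, percent of regions of each class by rank gain in log2. The ERE regions outside promoters centre on 3.03 and the promoters without an ERE on -0.30.

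Leaving out fulvestrant replicate 2 kept the direction at all 540 regions. This adds little, since the 540 were called on these ranks and in 532 of them the groups did not overlap. The fit on the 5 remaining libraries tested 16766 regions and called 589 (3.51%) higher with E2 plus fulvestrant and 97 (0.579%) higher with fulvestrant, and 356 of the 540 were called in it. The median gain of the 540 was 2.70 without that library. Of the other 5 libraries, E2 plus fulvestrant replicate 2 moved the first count most, to 347 when it was left out. Of the 589, 227 (38.5%) held an ERE and 12.6% were promoters. Of the 97 regions higher with fulvestrant, 85.6% were promoters, 3 held an ERE and none an AP-1 element.

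The region with the smallest p, 33462 bp from the TSS of Ngfr, the gene of a neurotrophin receptor, lies at chr11:95620948-95621538, 1463 bp from the TSS of the noncoding gene Gm11528. It ranked 157, 77 and 214 with E2 plus fulvestrant and 4226.5, 7750.5 and 8032 with fulvestrant, and its fold enrichment was 16.4, 30.9 and 22.5 against 6.47, 6.20 and 4.39. The gain was 5.54 (SE 0.80; limma adjusted p = 9.0e-05), and 5.42 without fulvestrant replicate 2. A region in an intron of Tln2, which encodes a talin that links integrins to actin, at chr9:67548900-67550280, ranked 641.5, 260 and 295 against 7234, 11141 and 12727 (gain 4.78, SE 0.70). It held no ERE within 1 mismatch.

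In an intronic region of Fbxo32, a muscle ubiquitin ligase gene, at chr15:58203730-58205252, the ranks were 917, 468 and 375.5 against 11785, 11885 and 11897 (gain 4.45, SE 0.66). Mrpl33, a mitochondrial ribosomal protein gene, held an intronic region with an AP-1 element and no ERE (chr5:31626732-31629387) that ranked 261.5, 236 and 200 against 5891.5, 8914 and 7691. Nkain1, whose product interacts with the sodium pump, had a region 2080 bp from its TSS (chr4:130575808-130577012) at ranks 95, 119 and 124 against 2100.5, 8809 and 6260. In none of these did the groups overlap, as was so for 532 of the 540 regions called on these ranks and for 2430 of all 12806.

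The other regions of the 12 with the smallest p lay in introns of Lgr6, a receptor for R-spondins, and Scg5, in Mapkapk2, a stress-activated kinase gene, and near Fgd2, Zfat, Fam110c and Dhrs9. Those of Mapkapk2 and Fam110c counted as promoters, as did those of Ngfr and Nkain1. Across the 12 the gain ran from 4.45 to 5.54, with adjusted p from 9.0e-05 to 1.6e-04 (limma), and without fulvestrant replicate 2 from 4.28 to 5.42, all still called. They were also called without each of the other 5 libraries. Of the 12, 8 held an ERE.

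The 14 regions that ranked higher with fulvestrant were less far apart. The promoter of Dnajb1, a heat-shock cochaperone gene, at chr8:83608176-83609300, ranked 11667, 12138 and 10093.5 with E2 plus fulvestrant and 3460.5, 1870.5 and 3257 with fulvestrant. Its fold was 2.19, 2.18 and 2.65 against 3.96, 7.23 and 3.84 (gain -2.03, SE 0.54, limma adjusted p = 0.0174). The promoter of Klf7, a transcription factor gene (chr1:64121774-64123212), ranked 411, 695 and 868 against 41, 43 and 127 (gain -3.37). The rest of the 12 with the smallest p were promoters of Gm13272, Arpc5 (actin nucleation), Tmed10 (cargo transport from the endoplasmic reticulum), Ppp2r2a (a phosphatase subunit), Tra2b (splicing), Fbxo38, Psmd3 (proteasome), Ctso and Abl1 (a tyrosine kinase), and an exonic region near Grn, which encodes progranulin. Without fulvestrant replicate 2 the call was lost for Ppp2r2a (adjusted p = 0.0515) and Ctso (adjusted p = 0.0567), and only 1 of the 14 was called when the log2 of the fold was tested in place of the rank. None of the 12 was called without E2 plus fulvestrant replicate 2 or without replicate 3 of that group, while 6 were without its replicate 1, and 3 and 5 were without fulvestrant replicates 1 and 3.

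**Figure D4:**
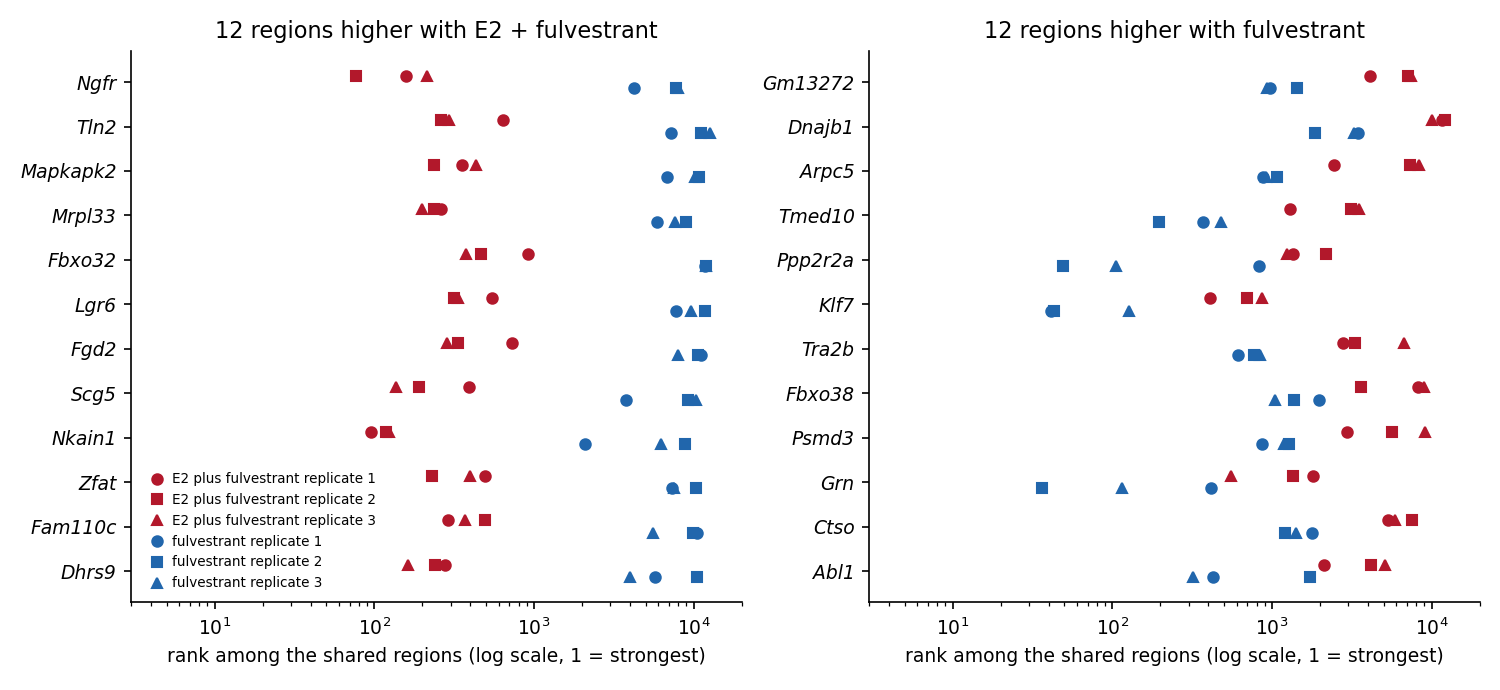
Rank of the 24 named regions among the shared regions in each library (x, log axis, 1 the strongest), each row labelled by the nearest protein-coding gene. Red is for E2 plus fulvestrant and blue for fulvestrant, with circle, square and triangle for replicates 1, 2 and 3. On the left the red symbols lie between 77 and 917 and the blue between 2100.5 and 12727. On the right blue lies nearer 1 in each row.

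The shared regions leave out places with no peak in some libraries. Merging the 6 lists gave 141351 regions, of which 1206 (0.853%) had a peak in 3 of 3 libraries with E2 plus fulvestrant and in 0 of 3 with fulvestrant, and 206 (0.146%) had the reverse. Without fulvestrant replicate 2 the counts were 1545 (1.62%) and 749 (0.784%) of 95518, and leaving out any 1 library gave at most 4909, without E2 plus fulvestrant replicate 1, and 1113, without fulvestrant replicate 1. Of the 1206, 137 (11.4%, Wilson 95% interval 9.69% to 13.3%) held an ERE, 213 (17.7%) an AP-1 element, and 10.4% were promoters. Of the 206, 1 held an ERE, 2 an AP-1 element, and 53.4% were promoters.

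Both kinds were mostly weak peaks: 18 of the 1206 lay on average in the top 10% of their lists, and 1 of the 206. The 5 best ranked of the 1206 lay in introns of Utrn, Specc1 and Dab2 and near Pank2 and Gata4. The Utrn region (chr10:12460808-12461555, with an ERE), in the gene of a dystrophin relative, ranked 3634, 1277.5 and 2125 in its lists. The Dab2 region (chr15:6390134-6390898), in the gene of an endocytic adaptor, had an ERE without a mismatch and ranked 2873, 3546.5 and 4012.5. The 5 best of the 206 included 2 neighbouring regions at Ighg2c and 1 at Ighv1-62, immunoglobulin heavy chain genes, besides the promoters of Cdca7l and Mettl2. The first Ighg2c region ranked 468, 14 and 2671.5 in the fulvestrant lists and had no peak in any E2, E2 plus fulvestrant or vehicle library.

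Among classic estrogen targets, Esr1, Greb1 and Cxcl12 held regions that ranked higher with E2 plus fulvestrant. Of the 20 genes, 14 were nearest to 33 shared regions. Of these, 4 passed the test upward and none downward, where 4.22% of all did upward, with a median gain of 0.21 against -0.11. In Esr1, the receptor's own gene, an intronic region (chr10:4617359-4619570) ranked 327, 333 and 338 against 2992, 10236.5 and 4870.5 (gain 3.99, SE 0.75), and a region 20818 bp from its TSS ranked 151, 95 and 179 against 1713.5, 5729 and 511. The call near Cxcl12, a chemokine gene (gain 3.26), was lost without fulvestrant replicate 2 (limma adjusted p = 0.0690) and without any 1 of the E2 plus fulvestrant libraries (0.0576, 0.0698 and 0.0639), and that of the second Esr1 region without E2 plus fulvestrant replicate 2 (0.0809).

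Greb1, a coactivator gene induced by estrogen in many tissues, had 1 region in the test, at chr12:16764625-16765237 with an ERE. It ranked 775, 446 and 1006 with E2 plus fulvestrant and 3361, 7153 and 6140 with fulvestrant (gain 2.91, SE 0.70, limma adjusted p = 0.00640, and gain 2.51 and adjusted p = 0.0459 without fulvestrant replicate 2). Without E2 plus fulvestrant replicate 2 the call was lost (gain 2.59, limma adjusted p = 0.0706). The first region counted as a promoter. A second region, chr12:16760300-16760801, lay in an intron and held an ERE without a mismatch. It ranked 1032.5, 818 and 739 in the own lists with E2 plus fulvestrant and 7462 and 9765.5 in fulvestrant replicates 1 and 3, with no peak in replicate 2. Both ranked highest in the libraries with E2.

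Pgr, the progesterone receptor gene and a standard estrogen target, had no region with a peak in all 6 libraries and so was not in the test. Peaks nearest to it numbered 6, 7 and 9 with E2 plus fulvestrant and 3, 3 and 3 with fulvestrant (exact permutation p = 0.1, the smallest possible and not adjusted over genes). The strongest, at chr9:8752094-8752794, 147396 bp from the Pgr TSS and with an AP-1 element but no ERE, ranked 864.5, 919.5 and 630 in the own lists with E2 plus fulvestrant, 15572.5 in fulvestrant replicate 1, and had no peak in the others. A region with an ERE, chr9:8732670-8733488, ranked 18995.5, 4303.5 and 13073 with E2 plus fulvestrant and had no peak with fulvestrant.

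The 13 genes that the study's text names for E2 are no independent evidence, since they were chosen on cultures of this study. Of them, 12 were nearest to 33 shared regions, with 3 higher and none lower, where 4.22% of all shared regions were higher and 0.109% lower. Their median gain was 0.41 (0.30 without fulvestrant replicate 2), against -0.11 over all. The 3 lay near Piezo2, a mechanosensitive channel gene (ranks 287, 318 and 323 against 3181.5, 8279.5 and 10335.5), Ncam1, a cell adhesion gene (607, 340 and 225 against 5253, 9922.5 and 2222), and Fbln7, a fibulin gene (377, 261 and 218 against 5567, 10320 and 1287). The groups did not overlap in any of the 3, which adds little, since the call used these ranks and 532 of the 540 called regions did not overlap. All 3 were called with any 1 of the 6 libraries left out. The Ncam1 region (chr9:49827392-49828344) held an ERE without a mismatch and an AP-1 element.

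At fibroblast genes the shares of regions called higher lay on both sides of the 4.22% of all shared regions. Of 38 shared regions at 11 of the 12 matrix genes, 1 was higher, 67530 bp from the TSS of the collagen gene Col5a1 (ranks 140, 124 and 126 against 2008, 2998 and 672.5), and the median gain was -0.09. Of 23 regions at 5 of the 6 fibroblast markers, 2 were higher, both near Dcn, which encodes the proteoglycan decorin. One of them (chr10:97522533-97524029) ranked 123, 201 and 212 against 1629, 11088 and 2501. Among 12 regions of the Fos and Jun family, 1, which lay 226614 bp from the TSS of Jun, was higher (1718.5, 1235.5 and 1737.5 against 9904, 7264 and 7854.5, gain 2.42). Without E2 plus fulvestrant replicate 2 or without fulvestrant replicate 1 the calls near Col5a1 (limma adjusted p = 0.0556 and 0.0553) and Jun (0.0687 and 0.0873) were lost, and that of the second Dcn region was lost without E2 plus fulvestrant replicate 3 (0.0615). None of these lists had a region called lower, but without fulvestrant replicate 2 the matrix genes had 1, and their median gain was -0.28.

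Of the 35 shared regions at receptor coregulator genes, the Greb1 region named above was the 1 called, with a median gain of -0.07. None of the 17 at glucocorticoid and progesterone targets was called (median -0.09). Over all shared regions 4.22% were called higher and 0.109% lower, with a median gain of -0.11. Lists this small would hold few calls at those shares. Ribosomal protein genes, 11 of 12 with 14 regions of which 92.9% were promoters, had none called and a median gain of -1.09, with 3 of 14 above 0. Without fulvestrant replicate 2 the median was -0.96 and 1 was called lower. For comparison, all promoters without an ERE had a median of -0.30. The marker lists of other cells held no shared region (myogenic), 3 (endothelial), 1 (immune) and 1 (epithelial), none of them called.

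E2 against vehicle, in 6 libraries that share no sample with those above, showed how the same regions behaved with no fulvestrant. E2 replicate 1 stood apart there, with 59.4% of its summits repeat-masked, so values are given without it and fulvestrant replicate 2 and then with all 12. In the fit without them, which called 419 of 12343 regions (3.39%) higher with E2, 439 of the 540 regions had a peak in all 10 libraries. Of these, 435 (99.1%) had a positive gain with E2 over vehicle, with a median of 2.41 (quartiles 1.71 and 3.07), and 225 passed the test upward and none downward. Over all 10445 matched regions 37.3% had a positive gain and the median was -0.16. With all 12 libraries, 164 of 189 matched regions (86.8%) were positive, with a median of 1.41 against 0.03 over all, and 3 passed.

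Single regions are given from the fit without those 2 libraries. There the gain with E2 over vehicle was 3.97 at the Ngfr region, 5.05 at the Fgd2 region, 4.93 at the Mrpl33 region and 2.83 at the intronic Esr1 region, all called. At the upstream Esr1 region it was 0.42 (adjusted p = 0.857) and at the Cxcl12 region 0.84 (adjusted p = 0.668). With all 12 libraries none of these 6 was called (limma adjusted p from 0.631 to 0.956). There the gain was 2.19 at the Ngfr region, 3.39 at the Fgd2 region, 3.27 at the Mrpl33 region and 1.49 at the intronic Esr1 region, and it turned negative at the upstream Esr1 region (-1.45) and the Cxcl12 region (-0.58). The 13 matched regions higher with fulvestrant had a median gain of -0.22 with E2 over vehicle, and 1, the Ppp2r2a promoter, passed downward (-3.11).

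**Figure D5:**
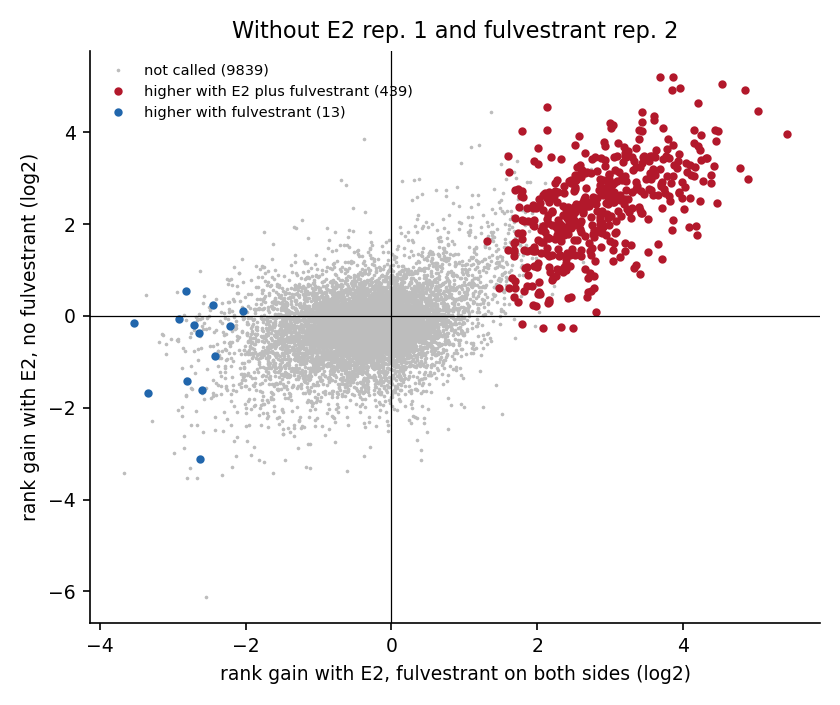
Rank gain with E2 over its control in log2, with fulvestrant on both sides (x, fit without fulvestrant replicate 2) and with no fulvestrant (y, fit without E2 replicate 1 and fulvestrant replicate 2), for the regions with a value in both. Red regions ranked higher and blue lower with E2 plus fulvestrant in the 6 libraries. Of the 439 red regions 435 lie above 0 on the y axis.

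A difference between the E2 effect with and without fulvestrant was tested directly. No region passed in the interaction fit over 12 libraries (limma, 0 of 7816, with 466 at an unadjusted p under 0.05) or in the fit over 10 (0 of 12343, with 494 at an unadjusted p under 0.05). In the fit over 10 libraries the typical 95% interval of a region's difference, before adjustment, was 1.54 to either side on the log2 scale. After adjustment larger differences also did not pass, such as -3.21 at the Abl1 region (limma adjusted p = 0.993). The absence of calls therefore does not show that the 2 effects were alike. The ERE share of the top 1000 was higher with E2 by 21.9 percentage points with fulvestrant on both sides and by 8.13 without it, a difference of 13.8 (exact permutation over assignments of libraries to treatments, p = 0.314, adjusted p = 0.810 over 6 such tests). Without E2 replicate 1 and fulvestrant replicate 2 the differences were 19.4 and 17.2 percentage points (exact permutation p = 0.805, adjusted p = 0.971).

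At the places with a peak only on the E2 side, E2 replicates 2 and 3 had a peak at 83.6% and 84.7% of the 1206 regions, and the vehicle libraries at 42.5%, 17.6% and 23.6%. E2 replicate 1 had a peak at 3.23% of them, below the vehicle libraries. The E2 lists were longer, at 104571, 60910 and 68971 peaks against 51239, 34293 and 39763 with vehicle. The part of list length was not tested. For comparison, 92921 regions had a peak in only 1 of the 6 libraries. Of those, E2 replicates 2 and 3 had a peak at 10.4% and 15.6%, and the vehicle libraries at 6.63%, 2.43% and 3.60%. Of the 206 regions on the fulvestrant side, E2 replicates 1, 2 and 3 had a peak at 54.9%, 52.9% and 74.3%. The vehicle libraries had one at 51.5%, 18.9% and 19.9%, so the lowest E2 value lay close above the highest vehicle value.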

How the data were processed

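Single-end ChIP-Seq reads were, per the study's methods and the submitters' processing notes, trimmed with Trimmomatic 0.39, aligned to mm10 with Bowtie2, freed of duplicates with Picard 2.21.4 and used by the authors to call peaks with MACS2 2.2.71. Each deposited list belonged to 1 library and gave each peak's position, summit, fold enrichment as a ratio, score, and −log10 of the p-value and q-value. The study's methods state that blacklisted peaks were filtered out, but not whether the deposited lists were written before or after that step. The smallest −log10 p was 2.00 to 2.04, and 11.4% to 18.6% of peaks per library had a q-value above 0.05; all deposited peaks were kept. Read totals were not used here; a relative depth was recovered from fold and p under the caller's Poisson model. Wilson 95% intervals and limits for a count of 0 (3 counts) cover counting error only.

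Summits were annotated with GENCODE vM21 (basic set), and a region took the name of the nearest protein-coding TSS. The regions at Ighg2c and Ighv1-62 were instead named by the nearest TSS of any gene. Their nearest protein-coding genes were Tmem121 and Zfp386. Regions were ranked by q-value and log2 ranks tested in limma 3.58.1 (R 4.3.3) with trend, 3 against 3 libraries. Benjamini-Hochberg adjustment was over all shared regions. The procedure was also run on simulated data with independent noise of the same spread in every library. Such data do not copy a library that stands apart, as fulvestrant replicate 2 did. Per-library measures were compared by exact two-sided permutation (20 arrangements), adjusted over 10 measures. The regions named were the 12 with the smallest p in each direction and the 5 best ranked of the regions found on 1 side only, besides list members with a called region, Pgr and Greb1. The comparison, members and gene lists were chosen with earlier results of these data known. The design had assumed that the replicate numbers might pair libraries. The deviations of same-numbered libraries from their group means correlated at 0.06, -0.01 and 0.26, and those of differently numbered libraries at -0.24 to 0.16. They were not treated as pairs in the main fit, and the replicate number as a block was run as an alternative. The study's methods state that batch effects were removed with limma, but the labels name no batch. Whether the replicate number carries a batch was not tested. The input library was not analysed here.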

Additional observations from a re-analysis of the deposited data

How the results depend on the processing

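The ERE, AP-1, steroid element and promoter shares of the top 1000 and the ERE share of all summits kept their direction under every alternative run. Where an alternative moved a result, the cause was not tested. The count of regions ranked higher with E2 plus fulvestrant (540) became 313 without limma's trend, 333 when ranked by fold, 86 with a −log10 q of at least 10, 359 with regions merged from summit windows, and 1552 with a peak in at least 3 of 6 libraries; leaving out 1 library gave 347 (without E2 plus fulvestrant replicate 2) to 695. The count ranked higher with fulvestrant (14) became 41, 3 and 2 under the first 3 of these and 102 under the last; it was 37 with ranks in the full lists, 7 with normal scores, 8 with the log2 fold (added after the data were seen) and 0 to 97 when 1 library was left out, with 0 without E2 plus fulvestrant replicate 2 or 3, 32 without fulvestrant replicate 3 and 97 without fulvestrant replicate 2. With the replicate number as a block it was 44, and the first count was 689; the block changed no other call, and the interaction count stayed at 0.

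The counts of regions with a peak on 1 side only (1206 and 206) became 6066 and 2421 with at least 2 of 3 libraries against none and 1835 and 477 with summit windows, the first 503 with a −log10 q of at least 10, and 1545 to 4909 and 378 to 1113 when 1 library was left out; the first was highest without E2 plus fulvestrant replicate 1. The difference in peaks per library (-3675) turned to 2689 without repeat-masked peaks and ranged from -10579 to 8527 when 1 library was left out, and that in covered sequence (-2.24 Mb) to 0.486 Mb and from -7.47 to 3.04 Mb. The differences in promoter and distal intergenic share of all peaks ranged from -4.12 to 1.03 and from -0.556 to 1.85 percentage points. The median gain with E2 over vehicle at the 540 regions was 1.41 with all 12 libraries and 2.41 without E2 replicate 1 and fulvestrant replicate 2. For the 24 named regions, 288 alternative values stayed called in the same direction and 97, all at regions higher with fulvestrant, kept the direction without passing. With 3 libraries per group no per-library measure could pass a p of 0.05.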

Other observations

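The 540 regions that ranked higher with E2 plus fulvestrant were nearest to 465 protein-coding genes, of which 60 had 2 or more and 12 had 3 or more. The following were picked after their values were seen. Lnx1, a ubiquitin ligase gene, had 5 of its 10 shared regions called, the largest number for 1 gene, 1 of them with an ERE. Sfrp1, which encodes a secreted Wnt inhibitor, had 3 of 6, and Thbs2, a thrombospondin gene, 3 of 12. Tgfbr2, a TGF-β receptor gene, had 2 of 12. Over all shared regions 4.22% were called higher, and other genes with 3 called regions included Kcnma1 (3 of 20) and Usp25 (3 of 4).

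Ppp2r2a had regions in both directions. Its promoter fell by 3.25 on the log2 rank scale, while regions between genes at chr14:67100572-67101934 and chr14:67115981-67117322 gained 3.19 (limma adjusted p = 0.00297) and 2.20 (limma adjusted p = 0.0305).

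Over all summits, steroid elements numbered 90, 143 and 192 with E2 plus fulvestrant and 71, 85 and 80 with fulvestrant, which is 0.220%, 0.281% and 0.290% against 0.167%, 0.105% and 0.175%. Windows 2 kb away held 0.139%, 0.142% and 0.146% against 0.129%, 0.124% and 0.129%, which also did not overlap.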
